A study of Mus musculus with 12 samples.

Results

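Annexins and S100 calcium-binding proteins were followed in mouse spinal cord through 10 genes, chosen with earlier results of these data known. The genes were Anxa1, Anxa2, Anxa3, Anxa4, Anxa5, S100a4, S100a6, S100a10, S100a11 and S100b. They are 10 of the 46078 genes in the deposited count table, and all 10 were among the 16527 genes with enough counts to be tested. The study sequenced bulk poly(A) RNA in 12 libraries, 3 to a group. Its 4 groups were spinal cord injury (SCI) with transplanted syngeneic mesenchymal stem cells (MSC), SCI with transplanted allogeneic MSC, SCI without cells, and non-injured cord. MSC are multipotent stromal cells; syngeneic cells come from a genetically matched donor and allogeneic cells from an unmatched one. The host strain of all 4 groups was C57BL6/cJ. The sources used here do not give the donor strain, where the cells came from, the time after injury, or the age and sex of the mice. The SCI and non-injured labels name no vehicle or sham operation. The labels do not say whether the 3 libraries of a group came from separate animals, so p-values measure the spread between these samples, which may be technical. RNA of transplanted cells and of host tissue is counted together.

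Annexins are cytosolic proteins that bind acidic phospholipids when calcium rises, and they take part in membrane resealing, vesicle traffic and the clearance of dying cells. S100 proteins are small EF-hand proteins that act mostly as dimers, and many of them bind an annexin: S100A10 joins annexin A2 in a surface complex that binds plasminogen and its activator, and S100A11 binds annexin A1. S100B is made in large amounts by glia, and its protein in blood or cerebrospinal fluid is used as a marker of nervous tissue damage.

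The depth was 8705942 counts in allogeneic replicate 2 to 26151928 counts in non-injured replicate 1. CPM below are counts scaled to a common library size with factors from the trimmed mean of M values (TMM), and TPM are also scaled by exon length, so that levels of different genes are compared only in TPM. Fold changes and p-values come from edgeR's quasi-likelihood test over all 12 libraries, and a gene is called when its Benjamini-Hochberg adjusted p over all 16527 genes is below 0.05. Some libraries stood apart from their group for these genes. Non-injured replicate 3 was the highest non-injured library for 9 of the 10 genes (50.1% of all genes tested were highest there) and held 10.9% mitochondrial counts, while the other 11 libraries held 4.998% to 8.80%. Syngeneic replicate 3 was the highest of its group for 9 of 10 genes (31.5% of all genes), and allogeneic replicate 1 was the lowest of its group for 10 of 10 (39.9% of all genes). Several results that rest on these libraries are given with and without them, and the others with all 12 libraries only.

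Of the 10 genes, 5 lie on chromosome 3 (GRCm38, GENCODE M21). S100a4 (ENSMUSG00000001020, bases 90603771 to 90606045, plus strand) and S100a6 (ENSMUSG00000001025, bases 90612882 to 90624181, plus strand) sit in the main S100 cluster. S100a11 (ENSMUSG00000027907, bases 93520488 to 93526287) and S100a10 (ENSMUSG00000041959, bases 93555080 to 93564643), both on the plus strand, are neighbours farther along, and Anxa5 (ENSMUSG00000027712, bases 36448923 to 36475894, minus strand) lies outside both groups. Anxa1 (ENSMUSG00000024659) is on chromosome 19, Anxa2 (ENSMUSG00000032231) on chromosome 9, Anxa3 (ENSMUSG00000029484) on chromosome 5, Anxa4 (ENSMUSG00000029994) on chromosome 6 and S100b (ENSMUSG00000033208) on chromosome 10. All 10 are annotated as protein coding. Anxa3 and S100a4 share exonic bases with the same-strand genes Gm42603 and Gm42674, and Anxa2 and Anxa4 share them with Gm16144 and Gm44036 on the other strand. The values of these 4 genes are therefore uncertain to the extent that reads fell there. For Anxa2 and Anxa4 the uncertainty also depends on the strand setting of the counting, which is not given.

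RefSeq promoter windows (GRCm38.p6, 250 bases before to 50 bases after a start) were found for 8 of the 10 genes, with 9 windows because Anxa4 has 2. They were searched on both strands for the AP-1 motif TGANTCA, which is bound by Fos and Jun proteins. The motif was present in 2565 of 32851 RefSeq windows (7.81%) and in 2 of the 9 windows, those of S100a11 and Anxa2. The 250 bases before the start are printed for these genes and for S100a6, the gene whose profile over the libraries was closest to that of S100a11. Capitals mark the AP-1 motif.
S100a11: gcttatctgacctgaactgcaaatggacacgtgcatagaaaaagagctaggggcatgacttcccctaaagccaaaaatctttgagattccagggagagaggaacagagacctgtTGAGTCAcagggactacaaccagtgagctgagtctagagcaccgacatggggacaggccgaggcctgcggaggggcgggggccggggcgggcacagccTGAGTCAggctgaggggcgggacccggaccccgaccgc
Anxa2: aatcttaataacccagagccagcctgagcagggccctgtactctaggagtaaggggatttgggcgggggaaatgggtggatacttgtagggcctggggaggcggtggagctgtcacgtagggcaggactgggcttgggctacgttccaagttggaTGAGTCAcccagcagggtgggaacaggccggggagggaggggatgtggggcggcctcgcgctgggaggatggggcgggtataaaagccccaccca
S100a6: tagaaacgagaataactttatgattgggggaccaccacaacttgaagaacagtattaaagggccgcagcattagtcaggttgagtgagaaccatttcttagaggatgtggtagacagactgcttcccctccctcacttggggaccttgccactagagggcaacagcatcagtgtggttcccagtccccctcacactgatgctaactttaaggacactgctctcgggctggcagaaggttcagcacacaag
The stretches are chr3:93520246-93520495 for S100a11, chr9:69453433-69453682 for Anxa2 and chr3:90612644-90612893 for S100a6, all on the plus strand. Counted from the start, the S100a11 matches begin at positions -136 and -38 and the Anxa2 match at -95. The TATA box letters TATAAA were in the windows of Anxa1, Anxa2 and S100a4 (13.6% of all windows), where they begin at positions -32, -17 and -31. Of the other motifs searched, the TEAD letters GGAATG were in the Anxa1 window (14.7% of all windows), an NF-kB motif in an Anxa4 window (8.46%) and a CArG box in the Anxa5 window (1.63%), and the STAT letters TTCNNNGAA (8.3%) were in none of the 9. Matches to these letters are descriptions of sequence and were not tested for binding.

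Per unit length, S100b was the most abundant of the 10 genes in every group and S100a4 the least. S100b had 1959 ± 396 TPM in the syngeneic group, 2055 ± 332 in the allogeneic group, 1849 ± 296 in SCI and 2060.1 ± 605 in non-injured cord (SD, n = 3 each). Anxa5, which binds exposed phosphatidylserine on dying cells, came second, at 457 ± 104, 569 ± 91.1 and 536 ± 54.9 TPM in the syngeneic, allogeneic and SCI groups and 334 ± 68.8 TPM in non-injured cord. S100a4 averaged 4.34 ± 2.65, 11.5 ± 6.38 and 7.09 ± 1.47 TPM in the same injured groups and 0.888 ± 0.546 TPM in non-injured cord. The order between these ends was not the same in all groups. In SCI it ran S100a6, S100a11, S100a10, Anxa2, Anxa3, Anxa4 and Anxa1, and no neighbours overlapped between their 3 libraries. S100a6 had 231 to 307 TPM there, S100a11 207 to 226 TPM and S100a10 154 to 182 TPM. In non-injured cord S100a10 (90.6 to 173 TPM) and Anxa2 (37.5 to 79.2 TPM) stood ahead of S100a6 (28.3 to 62.6 TPM) and S100a11 (26.8 to 51.7 TPM), and the ranges of Anxa2, S100a6 and S100a11 overlapped. In the syngeneic group S100a6 (131 to 247 TPM), S100a10 (129.8 to 175 TPM) and S100a11 (87.4 to 198 TPM) did not separate. S100b made up 56.5% to 72.5% of the summed TPM of the 10 genes in the syngeneic libraries, 53.2% to 61.1% in the allogeneic libraries, 53.6% to 58.9% in SCI and 74.1% to 78.9% in non-injured cord.

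SCI was first set against non-injured cord, which asks what differs in injured tissue without cells. The S100 genes S100a4, S100a6 and S100a11 and the annexins Anxa1, Anxa3 and Anxa4 rose, by 2.68-fold for Anxa4 to 12.4-fold for Anxa1. Anxa2, Anxa5, S100a10 and S100b were not called. Of the 10 genes, 6 were called higher and 0 lower, where 16.6% of all genes tested were called higher and 9.26% lower. In 8 of 10 every SCI library lay above every non-injured library, as it did for 26.3% of all genes. The median log2 fold change of the 10 genes was 1.90, against 0.01 over all genes tested. Because the genes were chosen with earlier results of these data known, these counts and this median are descriptions without a test. These are bulk libraries, in which more cells of a type and more RNA per cell cannot be told apart.

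**Figure D1:**
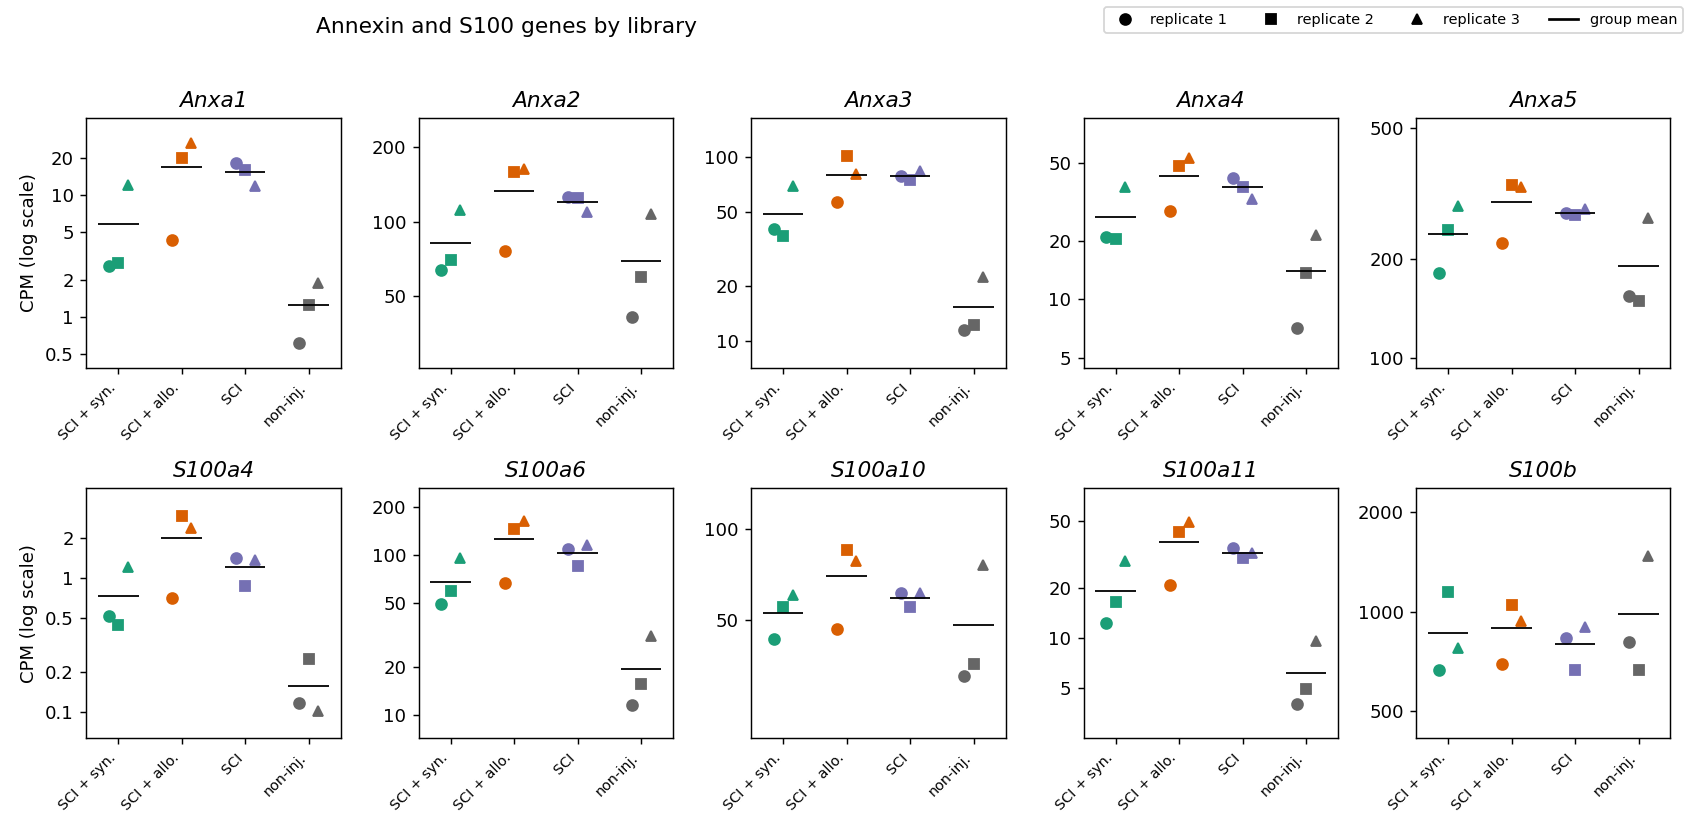
CPM of each gene (log scale, a separate range for each panel) in the 12 libraries, by group, with marker shapes for replicates and lines for group means. Anxa1, Anxa3, S100a4, S100a6 and S100a11 have every non-injured library below every injured one, whereas S100b and S100a10 overlap between groups.

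Anxa1, a glucocorticoid-induced protein that acts through formyl peptide receptors to restrain neutrophil entry, had 18.1, 15.98 and 11.7 CPM in the SCI libraries, against 0.618, 1.25 and 1.90 CPM in the non-injured libraries. The lowest SCI library was thus well above the highest non-injured one, and the log2 fold change was 3.63 (SE 0.77, adjusted p = 0.00605). Anxa3, an annexin of phagocytes that is also used as a microglial marker, had 79.1, 74.9 and 83.7 CPM in SCI, against 11.4, 12.2 and 22.3 CPM in non-injured cord. Its groups did not overlap and its SCI libraries lay close together (log2 fold change 2.37, SE 0.31, adjusted p = 0.000394). Anxa4, which is best known from secretory epithelia, had 42.0, 37.7 and 32.6 CPM in SCI, against 7.15, 13.6 and 21.4 CPM in non-injured cord. Its groups did not overlap either, but non-injured values spread 2.99-fold, and the log2 fold change of 1.42 (SE 0.37, adjusted p = 0.0168) was the smallest of the called genes. It lost its call without SCI replicate 1 (1.33, adjusted p = 0.0508) and with no filter on low counts (1.37, adjusted p = 0.0569).

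S100a4, also called fibroblast-specific protein and found in fibroblasts and macrophages, had 1.41, 0.879 and 1.36 CPM in SCI, against 0.116, 0.2499 and 0.103 CPM in non-injured cord. Its non-injured libraries held 9 counts in all and its SCI libraries 63, and the groups did not overlap (log2 fold change 2.97, SE 0.65, adjusted p = 0.00720). S100a6, or calcyclin, which is found in fibroblasts and in some astrocytes, had 109, 86.2 and 116 CPM in SCI, against 11.4, 15.5 and 31.0 CPM in non-injured cord. S100a11, the partner of annexin A1, had 34.7, 29.9 and 32.1 CPM in SCI, against 4.06, 4.997 and 9.59 CPM in non-injured cord. In both genes the SCI libraries lay together above all non-injured libraries, and the log2 fold changes were close, at 2.43 for S100a6 (SE 0.42, adjusted p = 0.00192) and 2.38 for S100a11 (SE 0.41, adjusted p = 0.00190). GENCODE lists a processed pseudogene of S100a11 (S100a11-ps), which had 0 counts in the 12 libraries, against 4950 for S100a11.

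The genes of the annexin A2 and S100A10 complex were not called with all libraries. Anxa2 had 125, 125 and 109 CPM in SCI, against 41.4, 59.9 and 107 CPM in non-injured cord, so that the groups nearly met at non-injured replicate 3. Its log2 fold change was 0.78 (SE 0.36, adjusted p = 0.128, 95% interval 0.01 to 1.56). S100a10 had 61.3, 54.9 and 61.2 CPM in SCI, against 32.5, 35.7 and 76.0 CPM in non-injured cord. Non-injured replicate 3 lay above all SCI libraries and the other non-injured libraries below all of them, and the log2 fold change was 0.30 (SE 0.30, adjusted p = 0.514, 95% interval -0.36 to 0.96). Anxa5 had 276, 272 and 283 CPM in SCI, against 154, 149 and 266 CPM in non-injured cord (log2 fold change 0.55, SE 0.24, adjusted p = 0.121). Its groups did not overlap, and its SCI libraries differed among themselves by only 1.04-fold. The ratio of Anxa2 to S100a10 in TPM was 0.578 to 0.737 in the SCI libraries and 0.414 to 0.546 in the non-injured libraries.

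S100b, the glial gene of the set, had 834, 668 and 900.4 CPM in SCI, against 811, 669 and 1476 CPM in non-injured cord. Apart from non-injured replicate 3, which stood alone, the groups covered nearly the same range. The log2 fold change was -0.30 (SE 0.29, adjusted p = 0.500), with a 95% interval from -0.94 to 0.35.

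Non-injured replicate 3 bore on this comparison more than any other library. It held 1.76 to 2.30 times the mean of the other non-injured libraries in 9 genes and 0.561 times in S100a4. Without it, 9 of the 10 genes were called higher, where 15.9% of all genes were called higher in that fit. Anxa2, Anxa5 and S100a10 then passed the threshold, with log2 fold changes of 1.22, 0.85 and 0.78 (adjusted p = 0.0278, 0.0180 and 0.0360). S100b stood at 0.10 without it (adjusted p = 0.811), so that its sign turned. The 6 genes called with all libraries kept their calls without it, at 1.85 for Anxa4 to 4.08 for Anxa1. The same library held 77704 CPM of summed oligodendrocyte markers, while the others of its group held 40580 and 32170 CPM, and 1064 CPM of Schwann cell markers, against 36.7 and 652 in those libraries. The part of these differences in the members' values was not tested.

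**Figure D2:**
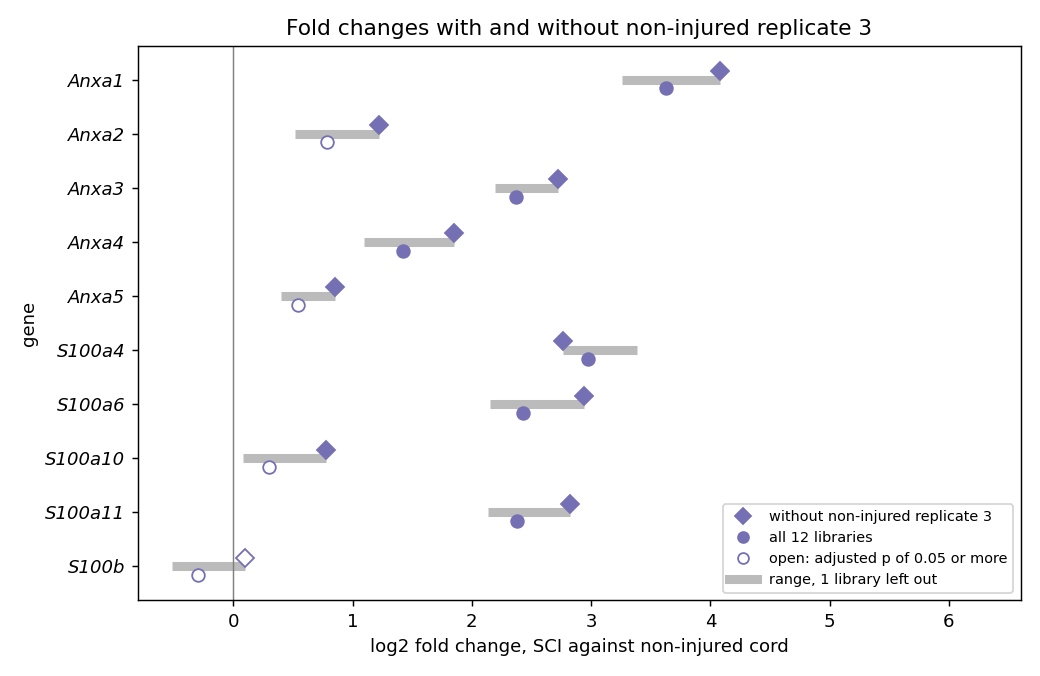
Log2 fold change of each gene in SCI against non-injured cord, with all 12 libraries (circles), without non-injured replicate 3 (diamonds) and over all fits that leave out 1 library (grey bars); filled markers have an adjusted p below 0.05. Anxa2, Anxa5 and S100a10 are open with all libraries and filled without that replicate, and S100b changes sign.

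Markers of several cell types moved in the same comparison, in which 16.6% of all genes tested were called higher and 9.26% lower. Of the monocyte and macrophage markers 8 of 8 were called higher, with a summed level of 710.1 to 1176 CPM in SCI and 16.2 to 20.6 CPM in non-injured cord. Fibroblast markers were called higher in 8 of 8 cases (1112 to 1655 CPM in SCI and 107 to 226 CPM in non-injured cord) and microglial markers in 7 of 7 (1064 to 1226 CPM in SCI and 242 to 356 CPM in non-injured cord). Markers of T and natural killer (NK) cells rose in 7 of 7 cases at a low summed level, with 5.05 to 5.66 CPM in SCI and 0.580 to 1.08 CPM in non-injured cord, where 2 of them were at 0 in every library. Astrocyte markers were called higher in 5 of 7 cases (6130 to 6481 CPM in SCI and 3655 to 4096 CPM in non-injured cord). Of 5 neutrophil markers tested, 3 were called higher, with a summed level of 56.6 to 76.9 CPM in SCI and 9.63 to 12.7 CPM in non-injured cord. Oligodendrocyte markers were called lower in 5 of 7 and neuron markers in 4 of 6. Of the remaining lists, mesenchymal stromal cell markers were called higher in 2 and lower in 1 of 7, Schwann cell markers higher in 1 of 6, ependymal markers in 1 of 5 and sensory ganglion neuron markers in 1 of 2, and 0 of 6 endothelial and 0 of 5 red blood cell markers were called. The part of these cell types in the rise of annexin and S100 genes was not tested.

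Transplanted groups were set against non-injured cord next. With allogeneic cells the same 6 genes were called higher as in SCI, where 16.7% of all genes were called higher, and in all 6 the groups did not overlap (21.1% of all genes). With syngeneic cells 3 genes were called higher, Anxa3, S100a6 and S100a11, where 4.92% of all genes were called higher, and in 5 the groups did not overlap (13.7% of all genes). These comparisons share the non-injured libraries with each other and with the SCI comparison. Anxa1 had a log2 fold change of 2.19 in the syngeneic group (SE 0.77, adjusted p = 0.139), 3.78 in the allogeneic group (SE 0.77, adjusted p = 0.00449) and, as given above, 3.63 in SCI. Without syngeneic replicate 3 the syngeneic value of Anxa1 was 1.11 (adjusted p = 0.635). Anxa3 rose in all 3, by 1.68 (SE 0.30, adjusted p = 0.00804) with syngeneic cells and 2.38 (SE 0.31, adjusted p = 0.000291) with allogeneic cells. S100a6 rose by 1.82 with syngeneic cells (SE 0.41, adjusted p = 0.0242) and 2.71 with allogeneic cells (SE 0.42, adjusted p = 0.000866). For S100a11 the corresponding values were 1.62 with syngeneic cells (SE 0.40, adjusted p = 0.0397) and 2.60 with allogeneic cells (SE 0.41, adjusted p = 0.000942). Without non-injured replicate 3 the syngeneic values of Anxa3, S100a6 and S100a11 were 2.02, 2.31 and 2.05 (adjusted p = 0.00750, 0.0130 and 0.0271). Anxa4 (1.62) and S100a4 (3.66) were called with allogeneic cells but not with syngeneic cells (0.91 and 2.19, adjusted p = 0.204 and 0.0932). S100a4 was called with syngeneic cells too by DESeq2 (2.23, adjusted p = 0.0337) and without allogeneic replicate 1 (2.19, adjusted p = 0.0384). Whether the responses differ is the direct comparison of the transplanted groups below. The syngeneic count was lower in several other fits, in which fewer of all genes were also called higher. It was 0 without non-injured replicate 1 (2.04% of all genes), 1 without non-injured replicate 2 (2.53%), 1 without syngeneic replicate 3 (2.54%), 1 with no filter on low counts (2.46%) and 0 when only these 6 libraries were fitted (1.03%). Without syngeneic replicate 3, Anxa3 was called (1.33, adjusted p = 0.0263), and S100a6 stood at 1.48 (adjusted p = 0.112) and S100a11 at 1.20 (adjusted p = 0.193). S100a11 also lost its syngeneic call with limma-voom (1.61, adjusted p = 0.0719) and without SCI replicate 1, 2 or 3 (adjusted p = 0.0614, 0.0617 and 0.0655). The same held without allogeneic replicate 2 (adjusted p = 0.0555). The allogeneic count was 9 without non-injured replicate 3, where 17.5% of all genes were called higher, and 8 without allogeneic replicate 1 (18.1% of all genes), where Anxa2 (1.21) and Anxa5 (0.82) were added.

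**Figure D3:**
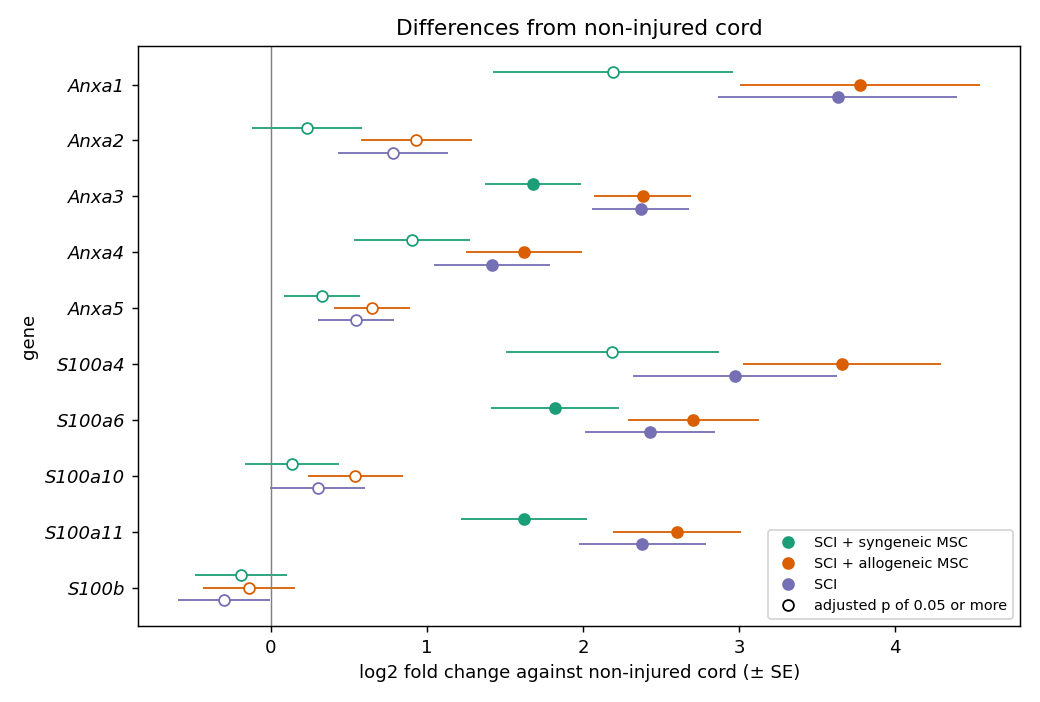
Log2 fold change against non-injured cord (± SE) for each gene in the syngeneic, allogeneic and SCI groups, from the fit over 12 libraries; filled markers have an adjusted p below 0.05. Anxa3, S100a6 and S100a11 are filled in all 3 groups, and the syngeneic estimate lies nearest to 0 except for S100b.

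The effect of syngeneic cells was read against SCI without cells. No gene of the 10 was called (0 of 10, where 0.0363% of all genes were called in either direction), also with DESeq2 and with limma-voom. All but S100b had a log2 fold change below 0 (9 of 10, where 49.4% of all genes lay below 0), with a median of -0.58 against 0.00 over all genes. The only gene with an unadjusted p below 0.05 was Anxa3 (1 of 10, where 7.96% of all genes were lower at that level), with 40.7, 37.5 and 69.4 CPM in the syngeneic libraries, against 79.1, 74.9 and 83.7 CPM in SCI. Its groups did not overlap (log2 fold change -0.69, SE 0.29, unadjusted p = 0.0366, adjusted p = 0.349). S100a11 was the only other gene without overlap, with 12.2, 16.5 and 28.8 CPM in the syngeneic libraries, against 34.7, 29.9 and 32.1 CPM in SCI. Together they made 2 of 10 genes lower without overlap, where 11.5% of all genes were, and the S100a11 difference was -0.76 (SE 0.38, adjusted p = 0.4005).

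Syngeneic replicate 3 lay close to SCI in most of these genes, whereas replicates 1 and 2 lay lower. Anxa1 had 2.62, 2.78 and 11.9 CPM in the syngeneic libraries, against 18.1, 15.98 and 11.7 CPM in SCI, so that replicate 3 reached the SCI range and the others did not. Its log2 fold change was -1.44 (SE 0.67, adjusted p = 0.373) with all libraries and -2.53 (adjusted p = 0.0499) without syngeneic replicate 3. That call of Anxa1 was then 1 of 10, where 4.76% of all genes were called lower in that fit. Without the same replicate Anxa3 stood at -1.05 (adjusted p = 0.0575) and S100a11 at -1.19 (adjusted p = 0.105). S100a4 had 0.524, 0.449 and 1.22 CPM in the syngeneic libraries and S100a6 49.3, 59.6 and 96.0 CPM, and both again had their highest value in replicate 3. Anxa4 had 20.9, 20.5 and 37.6 CPM, Anxa2 64.1, 70.0 and 111 CPM, Anxa5 181, 244 and 289 CPM, and S100a10 43.1, 55.1 and 60.2 CPM in these libraries. S100b had 666, 1151 and 776 CPM, the highest in replicate 2. The 95% intervals of the log2 fold changes of the 10 genes against SCI reached down to -2.90 for Anxa1 and up to 0.76 for S100b.

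Some cell type markers split along the same libraries and others did not. Fibroblast markers summed to 202, 246 and 1052 CPM in syngeneic replicates 1, 2 and 3, against 1112 to 1655 CPM in SCI, and monocyte and macrophage markers to 273, 187 and 1109 CPM, against 710.1 to 1176 CPM in SCI. Microglial markers summed to 690, 552 and 1131 CPM, against 1064 to 1226 CPM in SCI. For fibroblast markers all 3 syngeneic libraries thus lay below every SCI library, replicate 3 included. The same was true of some other lists. Red blood cell markers summed to 85.0, 222 and 200.2 CPM, against 284 to 353 CPM in SCI, endothelial markers to 215 to 242 CPM, against 291 to 350.4 CPM in SCI, and neutrophil markers to 26.1 to 49.5 CPM, against 56.6 to 76.9 CPM in SCI. Lower than SCI without overlap were 5 of 5 red blood cell, 5 of 6 endothelial and 4 of 5 neutrophil markers, where 11.5% of all genes were. So were 5 of 8 fibroblast, 4 of 8 monocyte and macrophage, 3 of 7 microglial and 3 of 7 T and NK cell markers. The count was 3 of 7 for mesenchymal stromal cell, 2 of 7 for astrocyte, 1 of 6 for Schwann cell and 1 of 2 for sensory ganglion neuron markers. It was 0 for oligodendrocyte, neuron and ependymal markers. Astrocyte markers, at 6048, 4214 and 6301 CPM in syngeneic replicates 1, 2 and 3, against 6130 to 6481 CPM in SCI, were lowest in replicate 2. No marker of the 14 lists was called against SCI. Their part in the values of the annexin and S100 genes was not tested.

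With allogeneic cells against SCI, too, none of the 10 genes was called (0 of 10, where 0.188% of all genes were called), nor was any called with DESeq2 or limma-voom, and 0 had an unadjusted p below 0.05. The log2 fold changes ran from 0.01 for Anxa3 to 0.69 for S100a4, all above 0 (10 of 10, where 50.4% of all genes lay above 0). Each had an adjusted p of 0.9999 after rounding, and the 95% intervals reached from -1.26 to 1.55 for Anxa1. Allogeneic replicate 1 was the lowest library for each gene. Anxa1 had 4.28, 19.97 and 26.3 CPM in the allogeneic libraries, S100a6 66.7, 146 and 165 CPM, and S100a11 20.8, 43.3 and 49.1 CPM. In these genes replicate 1 lay below every SCI library and replicates 2 and 3 above every one. Anxa2 showed the same split, with 76.5, 158 and 163 CPM in the allogeneic libraries, against 125, 125 and 109 CPM in SCI. Anxa3 had 57.1, 102 and 81.4 CPM, Anxa4 28.3, 48.0 and 53.0 CPM, Anxa5 224, 336 and 332 CPM, S100a10 46.7, 85.2 and 78.3 CPM and S100a4 0.713, 2.93 and 2.35 CPM in the allogeneic libraries. S100b had 696, 1049 and 941 CPM there, and its replicate 1 fell within the SCI range. Allogeneic replicate 1 also held the lowest summed fibroblast markers of its group (468 CPM, against 1568 and 1357 in replicates 2 and 3), as well as the lowest summed monocyte and macrophage markers (651 CPM, against 1451 and 1390), and the part of these cells was not tested. Markers of T and NK cells were called higher than in SCI in 5 of 7 cases, with a summed level of 39.9 to 77.5 CPM in the allogeneic libraries and 5.05 to 5.66 CPM in SCI. Without allogeneic replicate 1, 0 of the 10 genes were called against SCI (0.172% of all genes were), with log2 fold changes of 0.21 for Anxa3 to 1.10 for S100a4.

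Syngeneic and allogeneic cells were also compared directly. All 10 genes were lower with syngeneic than with allogeneic cells in the fit (10 of 10 log2 fold changes below 0, where 47.3% of all genes lay below 0), but 0 of 10 were called, where 0.593% of all genes were called lower. DESeq2 and limma-voom also called 0. At an unadjusted p below 0.05 were 5 genes, Anxa1, Anxa3, S100a4, S100a6 and S100a11, where 10.1% of all genes were lower at that level. S100a4 had the smallest p, at a log2 fold change of -1.47 (SE 0.51, unadjusted p = 0.0148, adjusted p = 0.259). In all 5, syngeneic replicates 1 and 2 lay below every allogeneic library and replicate 3 lay within the allogeneic range. With all libraries the log2 fold change was -1.58 for Anxa1 (SE 0.67, adjusted p = 0.312) and -0.70 for Anxa3 (SE 0.29, adjusted p = 0.307). Without syngeneic replicate 3, Anxa1 (-2.69, adjusted p = 0.0330) and Anxa3 (-1.08, adjusted p = 0.0443) were called lower with syngeneic cells. These were 2 of 10 genes, where 6.73% of all genes were called lower in that fit. Without allogeneic replicate 1, Anxa1 stood at -2.05 (adjusted p = 0.0787), S100a4 at -1.89 (adjusted p = 0.0594) and S100a11 at -1.28 (adjusted p = 0.0779). Markers of T and NK cells summed to 2.21 to 4.63 CPM with syngeneic cells and 39.9 to 77.5 CPM with allogeneic cells, and 6 of 7 were called lower with syngeneic cells. Of the monocyte and macrophage markers 1 of 8 was called lower and 4 were lower at an unadjusted p below 0.05, with a summed level of 187 to 1109 CPM with syngeneic cells and 651 to 1451 CPM with allogeneic cells. All 5 red blood cell markers were lower at that level, and none was called (85.0 to 222 CPM with syngeneic cells and 202 to 468 CPM with allogeneic cells). Microglial markers were lower at that level in 4 of 7 cases (552 to 1131 CPM with syngeneic cells and 1072 to 1451 CPM with allogeneic cells). So were 2 of 6 Schwann cell, 1 of 5 neutrophil, 1 of 7 mesenchymal stromal cell, 1 of 7 astrocyte and 1 of 8 fibroblast markers, where 10.1% of all genes were. The fibroblast count was thus near the share of all genes. No marker of the remaining lists, fibroblast and microglial ones included, was called in this comparison, and the part of these cell types in the difference was not tested.

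Each transplanted library was placed between the non-injured mean (0%) and the SCI mean (100%) on the log2 scale for the 6 genes called in SCI. The median position was 50.7%, 51.7% and 94.7% in syngeneic replicates 1, 2 and 3, and 74.2%, 119% and 126% in allogeneic replicates 1, 2 and 3. The genes of a library moved together: in syngeneic replicate 3 all 6 lay between 90.8% and 101%, and in syngeneic replicate 1 between 31.2% and 60.6%. Anxa1 had the lowest position of the 6 genes in syngeneic replicates 1, 2 and 3 and in allogeneic replicates 1 and 2. Since these 6 genes were chosen by the SCI values that set the scale, the positions are descriptions without a test.

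**Figure D4:**
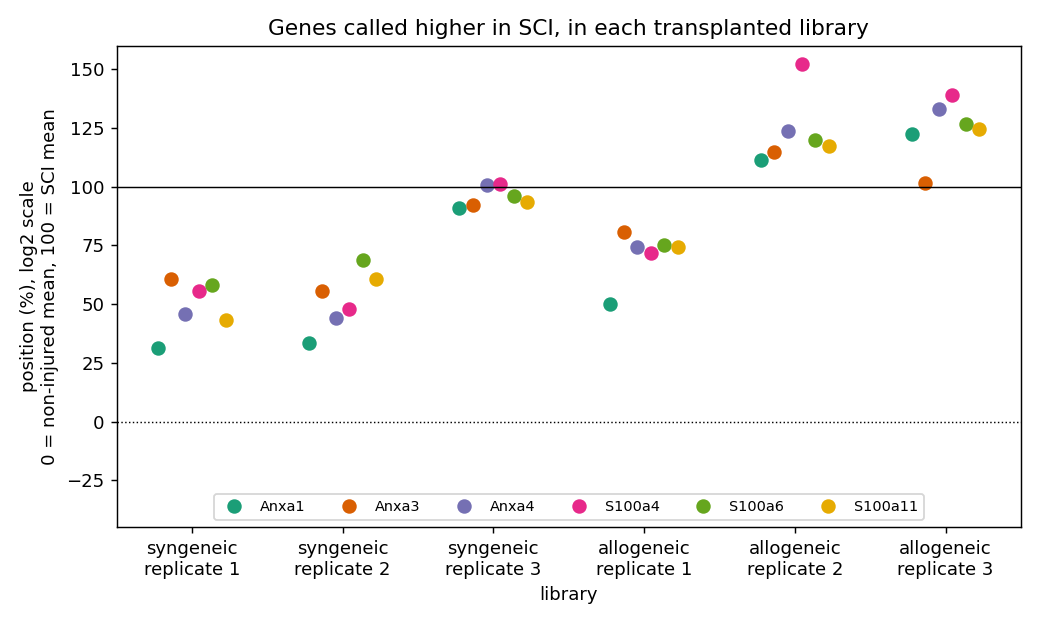
Position of each transplanted library between the non-injured mean (0%) and the SCI mean (100%) on the log2 scale, for the 6 genes called higher in SCI. Syngeneic replicates 1 and 2 lie between 31.2% and 68.9%, syngeneic replicate 3 near 100%, and allogeneic replicates 2 and 3 above 100% for all 6 genes.

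Among the members, profiles over the 12 libraries were compared by the root mean square (RMS) difference of log2 CPM after centring each gene. The closest pair was Anxa5 and S100a10 (0.137), followed by S100a6 and S100a11 (0.140) and Anxa3 and S100a11 (0.225), and the farthest pair was Anxa1 and S100b (1.70). The nearest of 13739 other genes with a mean log2 CPM of at least 1 were Sfrp4 and Islr for Anxa1 (0.298 and 0.313), Cd44 and Casp12 for Anxa3 (0.133 and 0.139), and Pqlc3 for S100a11 (0.198). For S100a6 they were Emp3 and Tnfaip8l2 (0.236 and 0.244), for S100a4 Efemp1 and Zc3h12a (0.299 and 0.333), and for Anxa4 Tmem176a and Tgif2 (0.174 and 0.176). Anxa2 was nearest to Nfatc4 and Uaca (0.164 and 0.172), Anxa5 to Rell1 and Dbi (0.0735 and 0.0901), S100a10 to Ddah2 and Tmsb4x (0.0764 and 0.107), and S100b to Plekhb1 and Pdlim2 (0.105 and 0.1097). These distances describe 12 libraries that differ in depth and in their summed cell type markers, and carry no test.

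The rest of both families was read from the same comparison of SCI with non-injured cord. Of 7 other annexin genes 4 were tested, of which 1, Anxa11, rose and 1, Anxa6, fell. Among all genes 16.6% rose and 9.26% fell. Anxa11, an annexin that tethers RNA granules to lysosomes, had 8.33, 8.46 and 9.61 CPM in SCI in ascending order, against 3.74, 5.18 and 5.53 CPM in non-injured cord (log2 fold change 0.87, SE 0.21, adjusted p = 0.0121). Anxa6, an annexin with a doubled core, had 163, 174 and 186 CPM in SCI, against 216, 216 and 218 CPM in non-injured cord (log2 fold change -0.31, SE 0.09, adjusted p = 0.0272). Both pairs of groups were without overlap. Of 11 other S100 genes with a value, 7 were tested and 2 rose, where 16.6% of all genes rose. These were S100a8 and S100a9, which form calprotectin in neutrophils and monocytes. S100a8 averaged 8.52 ± 0.856 CPM in SCI and 2.83 ± 1.31 CPM in non-injured cord (SD, n = 3; log2 fold change 1.61, SE 0.37, adjusted p = 0.00878), and S100a9 11.8 ± 2.43 CPM in SCI and 4.02 ± 1.65 CPM in non-injured cord (1.57, SE 0.39, adjusted p = 0.0141).

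Of 4 listed receptor genes of these proteins only 2 were tested, and both rose, where 16.6% of all genes rose. Tlr4, which binds calprotectin, had 9.44 to 10.5 CPM in SCI, against 1.28 to 1.79 CPM in non-injured cord (log2 fold change 2.74, SE 0.28, adjusted p = 0.000157). Ager, the receptor RAGE of several S100 proteins, had 1.98 to 2.53 CPM in SCI, against 0.125 to 0.812 CPM in non-injured cord (2.09, SE 0.50, adjusted p = 0.0113). The formyl peptide receptor genes Fpr1 and Fpr2 had too few counts to be tested.

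Partners of the annexin A2 and S100A10 complex and genes of the plasminogen system were called in most cases. Of 11 listed genes 10 were tested, 5 rose and 1 fell, where 16.6% of all genes rose and 9.26% fell. Plau, the urokinase-type plasminogen activator, had 27.8 to 36.0 CPM in SCI, against 1.999 to 3.08 CPM in non-injured cord (log2 fold change 3.69, SE 0.40, adjusted p = 0.000168). Its receptor gene Plaur had 6.50 to 8.18 CPM in SCI, against 0.387 to 1.44 CPM in non-injured cord (3.22, SE 0.52, adjusted p = 0.00145). Ahnak, a giant scaffold protein bound by the complex, had 164 to 190.4 CPM in SCI, against 38.9 to 75.2 CPM in non-injured cord (1.64, SE 0.28, adjusted p = 0.00200). None of the 3 overlapped between the groups. Kcnk3, the potassium channel TASK-1, which S100A10 binds, had 25.3 to 26.2 CPM in SCI, against 39.1 to 40.2 CPM in non-injured cord, and fell (-0.62, SE 0.11, adjusted p = 0.00184). The other called genes, named after their values were seen, were the tissue-type activator Plat (1.12) and the protease inhibitor Serpine2 (0.50). Plasminogen itself, Plg, was not tested for lack of counts.

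Of 14 listed genes of membrane repair 13 were tested and 2 rose, the ferlin gene Myof and the membrane remodelling gene Ehd2, a count near the 16.6% of all genes called higher. Myof had 40.3 to 47.3 CPM in SCI, against 2.82 to 7.90 CPM in non-injured cord (log2 fold change 3.09, SE 0.43, adjusted p = 0.000546), whereas Dysf, the muscle ferlin, had a log2 fold change of 0.14 (SE 0.12, adjusted p = 0.431). Ehd2 had 33.1 to 39.9 CPM in SCI, against 12.5 to 24.7 CPM in non-injured cord (1.07, SE 0.29, adjusted p = 0.0206). Among 4 S100 target genes Myh9, the non-muscle myosin heavy chain bound by S100A4, rose (1.14, SE 0.19, adjusted p = 0.00139), and the calcyclin-binding gene Cacybp (-0.59, SE 0.12, adjusted p = 0.00502) and the phosphatase gene Ppp5c (-0.25, SE 0.08, adjusted p = 0.0474) fell. Of the S100 targets 1 of 4 was thus called higher and 2 of 4 lower, where 16.6% and 9.26% of all genes were. The median log2 fold change was 0.22 for the other annexins, 0.54 for the other S100 genes, 0.36 for the complex and plasminogen list, 0.10 for membrane repair and -0.10 for the S100 targets. No gene of these lists was called in any comparison among the SCI, syngeneic and allogeneic groups.

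**Figure D5:**
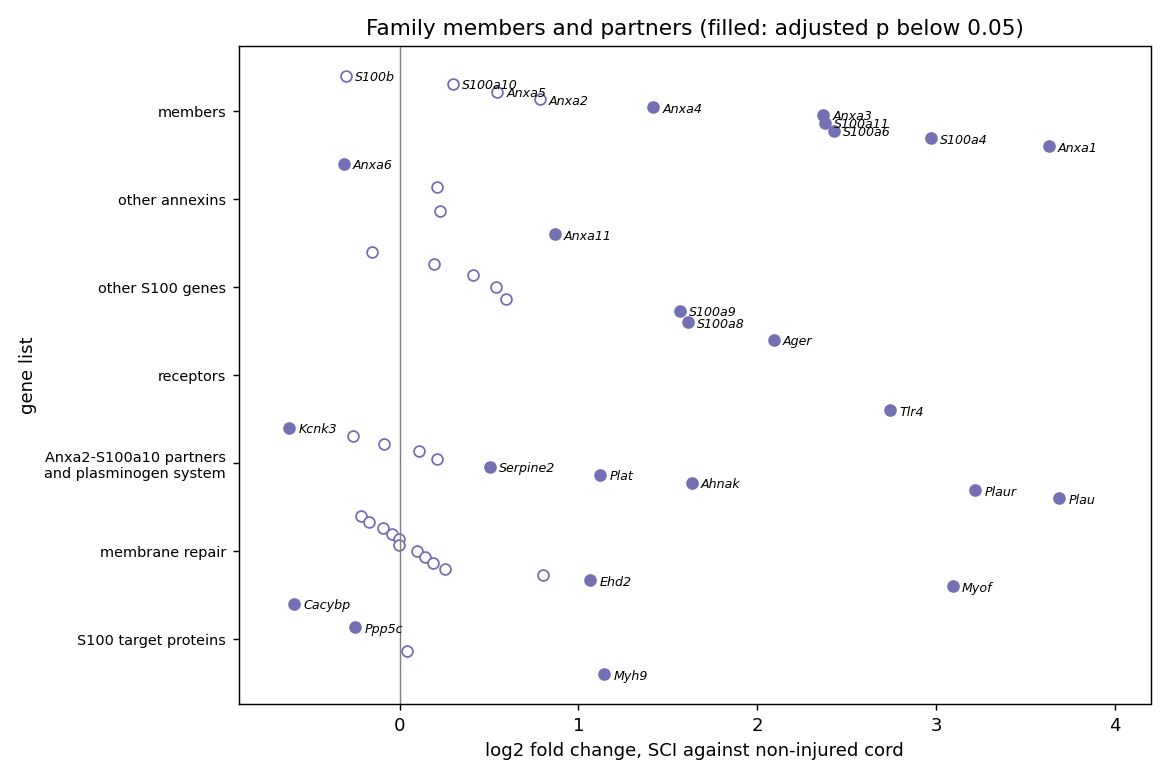
Log2 fold change in SCI against non-injured cord of the 10 genes and of the tested genes of 6 related lists, each point 1 gene; filled points have an adjusted p below 0.05, and gene names are given for the 10 genes and for called genes. Most membrane repair genes lie within 0.3 of 0, and Anxa1, Plau, Plaur and Myof lie beyond 3.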

How the data were processed

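RNA of mouse spinal cord was sequenced in 12 libraries, 3 in each of 4 groups taken from the labels. Libraries were made after poly(A) selection with a strand-preserving kit, per the labels' protocols. The authors deposited raw counts of reads for 46078 Ensembl genes. Tools named, without role or order, per the submitters' processing notes, were featureCounts 1.5.1, StringTie 1.3.3, STAR 2.5.1, Picard, Trim Galore 0.4.1 and FastQC 0.11.5, with the build GRCm38. The sources used here do not give the annotation release, the strand setting or the treatment of multi-mapping reads.

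Symbols, coordinates and exon lengths came from GENCODE M21 (GRCm38) and the reference tables, and 45031 genes had a symbol. Genes were kept with filterByExpr (minimum count 10, minimum total 15; 16527 genes) and scaled by TMM. The test was edgeR 4.0.16 in R 4.3.3 (robust glmQLFit and glmQLFTest) over all 12 libraries with 8 residual degrees of freedom, checked on simulated data. P-values were adjusted by Benjamini-Hochberg over all genes tested in each of 6 comparisons, at 0.05, and tests are two-sided. Log2 CPM used a prior count of 2, and TPM used the union of exons. Alternatives were DESeq2 1.42.0, limma-voom (limma 3.58.1), library totals, relative log expression factors, no filter, the compared groups alone, and each library left out in turn. Total counts ran from 8705942 to 26151928 per library. No pair of libraries of a group held identical values, and each pair differed by more than sampling noise.

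The 10 genes, the 6 related lists and the 14 marker lists were chosen with earlier results of these data known. Named genes are the 10 members, up to 4 called genes with the smallest p in each related list (SCI against non-injured cord), and the 2 nearest profiles per member; exceptions are marked. One listed symbol (S100a7l2) was not matched. One gene of the complex and plasminogen list, removed from its counts and median after they had been computed, and one nearest profile of S100a11 are not reported here.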

Additional observations from a re-analysis of the deposited data

How the results depend on the processing

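Counts of called genes changed by more than 1.5 times only in comparisons with the syngeneic group. For syngeneic against non-injured cord, 3 genes were called, against 1 with no filter on low counts and 0 with only the 2 groups fitted, where 2.46% and 1.03% of all genes were called higher; the fit on 2 groups has fewer samples, and the cause was otherwise not tested. With each library left out in turn, the count ran from 5 to 9 for SCI against non-injured cord, 0 to 1 for syngeneic against SCI, 0 to 0 for allogeneic against SCI, 0 to 2 for syngeneic against allogeneic, 0 to 4 for syngeneic against non-injured cord and 6 to 9 for allogeneic against non-injured cord.

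Of the log2 fold changes recomputed, 1023 kept direction and side of the threshold, 20 changed sign, 17 gained and 19 lost a call; each that changed sign was uncalled on both sides. By limma-voom, Anxa1 and Anxa3 in allogeneic against SCI turned to -0.18 and -0.025. With each library left out in turn, the ranges that crossed 0 were, for S100b, -0.52 to 0.10 (SCI against non-injured), -0.15 to 0.27 (syngeneic against SCI), -0.31 to 0.11 (syngeneic against allogeneic), -0.45 to 0.19 (syngeneic against non-injured) and -0.35 to 0.27 (allogeneic against non-injured). In allogeneic against SCI they were -0.36 to 0.61 for Anxa1, -0.018 to 0.43 for Anxa2, -0.19 to 0.21 for Anxa3 and -0.010 to 0.52 for S100a11. In syngeneic against non-injured cord they were -0.067 to 0.66 for Anxa2 and -0.082 to 0.60 for S100a10, which left 11 results with no stable sign. Anxa2 and Anxa5 gained a call in allogeneic against non-injured cord with DESeq2 and with library totals. S100a4 gained a call in syngeneic against non-injured cord with DESeq2 and without allogeneic replicate 1. S100a4 had no value for syngeneic against non-injured cord with only the 2 groups, because it was filtered out.

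No paired analysis was possible because the labels give sample numbers that differ between groups. S100a4 had the fewest counts, 9 in the non-injured libraries. With 3 libraries a group, the spread between libraries limits every comparison, and allogeneic replicate 2 had the lowest depth.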
